A study of Homo sapiens with 6 samples.

Results

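The human growth hormone locus holds 5 related genes on chromosome 17, which lie in the order CSH2, GH2, CSH1, CSHL1 and GH1 in the RefSeq gene table (GRCh38.p14). Rows of the array table (each a set of probes summarised as 1 value) were taken as members when the platform's probe annotation gave them any of these symbols, which selected 5 of 33297 rows. CSH2, GH2, CSHL1 and GH1 each had 1 row of their own. The remaining row carried all 5 symbols and is described apart, and CSH1 had no other row. The set was chosen by the measured intensity of the GH1 row, already known to be lower in the treatment arrays, so the differences between treatment and control in these rows are given as a description and without a test.

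RNA came from HEK293 cells, an established line of human embryonic kidney origin, and was hybridised to 6 Affymetrix Gene 1.0 ST arrays, 1 biotin-labelled sample on each. There were 3 treatment arrays, whose cells received a "Neo vector" according to the source label, and 3 control arrays, whose cells received a "transient vector" according to the same label. The design text instead sets cells transfected with the empty plasmid pCMV9 against untreated cells, so what the control cells received is not settled, and the groups are called treatment and control. The stated aim was to find mediators of an antiviral effect that accompanied transfection of the empty plasmid. No label gives a time, a dose, the sequence of either vector or the origin of the replicates. The spread behind every p-value is therefore that of these 6 arrays and may be technical.

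GH1 encodes pituitary growth hormone, which somatotroph cells secrete under the control of the transcription factor POU1F1 (Pit-1). GH2, CSH1 and CSH2 encode a placental growth hormone and the placental lactogens, which are made by the syncytiotrophoblast, and CSHL1 is a lactogen-like gene with low placental expression. Growth hormone acts by binding its receptor GHR, which activates the kinase JAK2 and the transcription factors STAT5A and STAT5B, with IGF1 and the feedback inhibitors SOCS2 and CISH among the targets. As general background, the end of the human growth hormone gene is built into some expression plasmids as a polyadenylation signal. The array cannot tell such sequence from the cells' own transcripts, and whether plasmid sequence contributed to any value below was not tested.

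The rows did not separate the family cleanly, as the transcripts listed for each row in the annotation showed. The GH1 row listed 11 accessions, of which 7 were also listed for the shared row, and the GH2 row listed 12, of which 7 were also in the shared row. The only accession of the CSH2 row was in the shared row too, whereas none of the 6 accessions of the CSHL1 row was. All 3 RefSeq mRNAs of GH1 and all 4 of GH2 stood in both their own row and the shared row. The single RefSeq mRNA of CSH1 was listed for no row of the array, and the CSH1 symbol stood on the shared row alone. Whether other accessions of the shared row are CSH1 transcripts was not checked. Signals of these near-identical genes can therefore be split between rows in a way the deposited values do not reveal.

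The GH1 row was lower in the treatment arrays. Its deposited intensity, on a linear scale, was 276, 378 and 394 in treatment replicates 1, 2 and 3, against 1068, 850.3 and 827 in control replicates 1, 2 and 3. Every treatment array lay below every control array, and the lowest and the highest values belonged to treatment replicate 1 and control replicate 1. The means were 349 ± 63.9 in treatment and 915 ± 133 in control arrays (SD, n = 3 each), so that the treatment mean was 38.2% of the control mean. The log2 difference, computed as log2(intensity + 16) in treatment minus control, was -1.36 ± 0.215 (SE), the 6th lowest of all 33297 rows. In bulk RNA, fewer cells with a transcript and less of it per cell cannot be told apart.

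A ranking within each array gave the same picture without use of the scaling between arrays. The GH1 row was at or above 73.0%, 79.2% and 80.8% of all rows in the 3 treatment arrays, against 94.0%, 91.4% and 90.8% in the 3 control arrays. As a rough reference for dim rows, 360 rows of olfactory receptors, genes of the sense of smell, had means of up to 371 in treatment and 423 in control arrays, with 95th percentiles of 67.4 in treatment and 51.2 in control arrays. The GH1 control mean of 915 lay above all of these rows, and its treatment mean of 349 was reached by 0.278% of them. Rows differ in how brightly their probes hybridise, so this reference gives no amount of transcript.

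**Figure D1:**
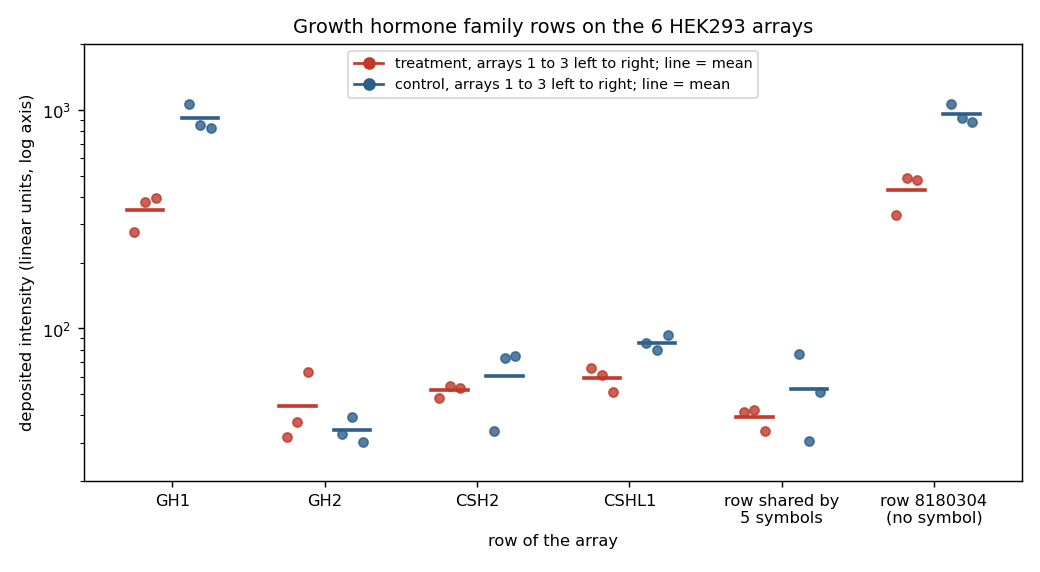
Deposited intensity (log axis) of the 5 growth hormone family rows and of row 8180304, which has no gene symbol in the annotation, on each of the 6 arrays; points are arrays and short lines are group means, with treatment on the left of each pair. GH1 and row 8180304 lie between 276 and 486 in treatment and between 827 and 1068 in control arrays, while the remaining rows lie below 100 on all arrays.

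The rows of the placental members were far dimmer than GH1 on all arrays. Their group means were reached by 2.5% (CSHL1, control) to 12.5% (GH2, control) of the olfactory receptor rows. CSHL1 gave 66.0, 61.5 and 51.2 in treatment replicates 1, 2 and 3, against 85.7, 79.8 and 93.1 in control replicates 1, 2 and 3. The groups did not overlap, although the difference was small next to that of GH1. The log2 difference was -0.44 ± 0.196 (SE), from means of 59.6 ± 7.59 in treatment and 86.2 ± 6.69 in control arrays (SD, n = 3 each). The treatment mean of CSHL1 was below and the control mean above the 95th percentile of the olfactory receptor rows in its group. That percentile itself differed, at 67.4 in treatment and 51.2 in control arrays, and both means of CSHL1 were above the control percentile.

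CSH2, the gene of a placental lactogen, gave 48.2, 54.7 and 53.3 in treatment replicates 1, 2 and 3, against 34.1, 73.2 and 74.6 in control replicates 1, 2 and 3. The control arrays spanned the treatment arrays, with control replicate 1 the lowest of all 6. The means were 52.1 ± 3.46 in treatment and 60.6 ± 23.0 in control arrays (SD, n = 3 each). The log2 difference of -0.12 ± 0.244 (SE) was smaller than the pooled SD within groups on the same log2 scale, 0.349. It was 0.01 without control replicate 2, 0.03 without control replicate 3 and -0.40 without control replicate 1. The treatment mean of CSH2 was below and its control mean above the 95th percentile of the olfactory receptor rows in that group. Both means lay between the control percentile of 51.2 and the treatment percentile of 67.4, so nothing is read from this crossing.

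GH2, the gene of placental growth hormone, gave 31.8, 37.4 and 63.2 in treatment replicates 1, 2 and 3, against 33.0, 39.5 and 30.3 in control replicates 1, 2 and 3. The groups overlapped, and treatment replicate 3, the array least like the others over all rows, stood above the other 5. The log2 difference of 0.23 ± 0.227 (SE) was 0.01 without that array. Both means of GH2 (44.2 in treatment and 34.3 in control arrays) were below the 95th percentile of the olfactory receptor rows.

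The row shared by all 5 symbols gave 41.5, 42.5 and 34.1 in treatment replicates 1, 2 and 3, against 76.7, 30.6 and 51.3 in control replicates 1, 2 and 3. The groups overlapped, since the control arrays held both the highest and the lowest value. The log2 difference was -0.26 ± 0.247 (SE), from means of 39.4 ± 4.60 in treatment and 52.9 ± 23.1 in control arrays (SD, n = 3 each). It was -0.02 without control replicate 1 and -0.52 without control replicate 2. The shared row, which lists 7 of the 11 accessions of the GH1 row, was far dimmer than GH1 and had a wide spread among control arrays. Its treatment mean was below and its control mean just above the 95th percentile of the olfactory receptor rows in that group. Both means were below the treatment percentile of 67.4. The value of the shared row for CSH1 cannot be separated from the remaining members.

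The groups did not overlap for 2 of the 5 rows, GH1 and CSHL1, both with treatment lower, as was the case for 7.1% of all rows (7.47% had treatment higher). Because this contrast led to the choice of the set, nothing is read from that count. Over the 5 rows the median log2 difference was -0.26, beside 0.0116 over all rows. The size of the GH1 difference moved little when single arrays were left out, from -1.45 without treatment replicate 3 to -1.20 without treatment replicate 1, and it was -1.24 without control replicate 1.

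**Figure D2:**
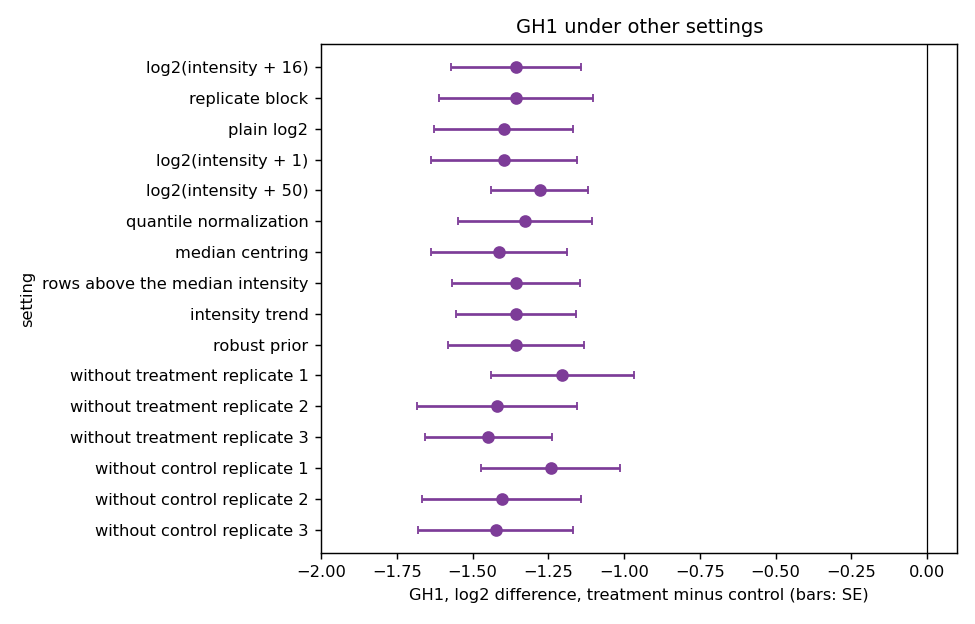
GH1 log2 difference, treatment minus control (horizontal axis, bars are SE), for the main scale of log2(intensity + 16), at the top, and for 15 other settings down the page. All values lie between -1.45 and -1.20. The replicate block, the intensity trend, the robust prior and the filter on dim rows cannot change the value.

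Genes beside the locus were measured where they had a row of their own symbol, and none of those measured passed the test. Of the 10 nearest measured genes on each side, 20 in all, 0 passed limma's moderated test over all rows (adjusted p under 0.05), where 0.372% of all rows did, 0.015% as lower and 0.357% as higher. An unadjusted p under 0.05 was found for 2 of the 20 and for 7.3% of all rows. Their median log2 difference was 0.01, with a range from -0.65 to 0.26. Beside GH1 lies CD79B, which encodes a chain of the B-cell receptor complex. It gave 80.6, 94.4 and 119 in treatment arrays, against 67.9, 80.3 and 102 in control arrays, and the groups overlapped (log2 difference 0.20 ± 0.217, adjusted p = 0.855, limma).

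Next after CD79B, the muscle sodium channel gene SCN4A gave 62.9, 63.6 and 99.5 in treatment replicates 1, 2 and 3, against 172, 71.8 and 70.1 in control replicates 1, 2 and 3. Control replicate 1 stood apart, and the groups overlapped (log2 difference -0.32 ± 0.293, limma adjusted p = 0.818). The adhesion molecule ICAM2 was the next measured gene, with a log2 difference of -0.01 ± 0.224 (limma adjusted p = 0.997). The neighbours with the lowest p were ACE, which encodes angiotensin-converting enzyme (-0.65 ± 0.212, adjusted p = 0.557, limma), TEX2 (-0.46 ± 0.202, adjusted p = 0.68), LIMD2 (-0.24 ± 0.194, adjusted p = 0.798) and TACO1 (-0.25 ± 0.226, adjusted p = 0.816). Over the 20 neighbours the groups did not overlap for 3, ACE, TEX2 and LIMD2, each with treatment lower, beside 7.1% of all rows in that direction. The testis gene TCAM1P, which borders CSH2 in the RefSeq table, had no row of its own symbol and was not analysed here. Other genes of the region without such a row, such as PSMC5 and SMARCD2 between FTSJ3 and TCAM1P, were passed over too.

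**Figure D3:**
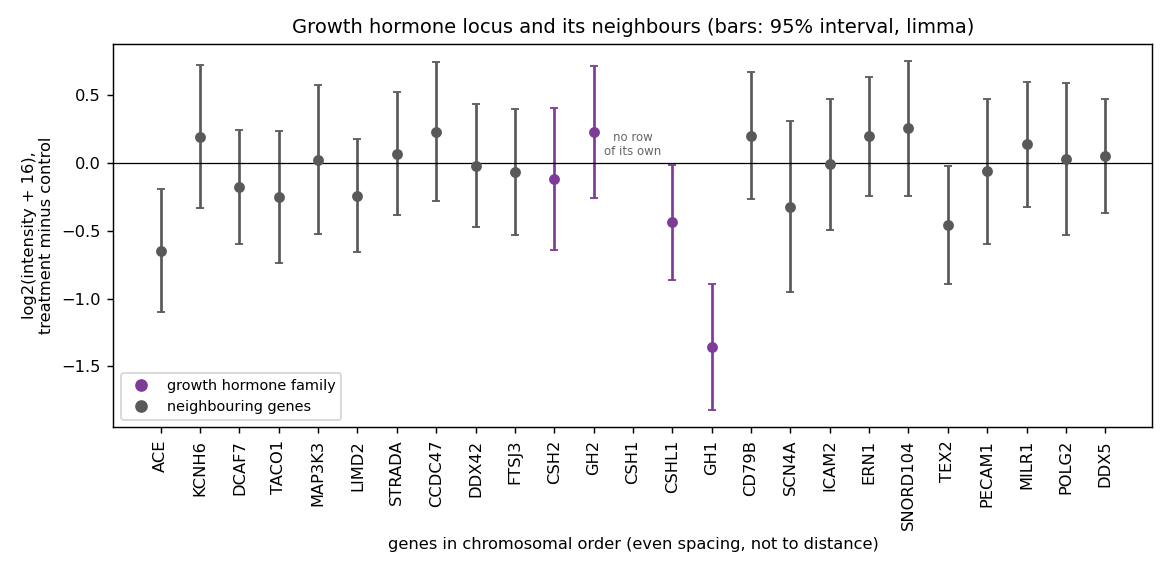
Log2 difference, treatment minus control (vertical axis, bars are 95% intervals from limma), for the growth hormone family rows and 10 measured genes on each side, in chromosomal order with even spacing. GH1 lies at -1.36, and the 20 neighbouring genes lie between -0.65 and 0.26.

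Genes of the growth hormone axis, through which the hormone acts or which control its release, were measured by 31 rows of their own symbol, out of 32 listed. None of the 31 passed limma over all rows (0 at an adjusted p under 0.05), and 1 had an unadjusted p under 0.05, beside 0.372% and 7.3% of all rows. Their median log2 difference was 0.07, with a range from -0.37 to 0.88.

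The receptor gene GHR gave 67.8, 49.4 and 27.3 in treatment replicates 1, 2 and 3, against 41.8, 55.1 and 80.2 in control replicates 1, 2 and 3. The groups overlapped (log2 difference -0.24 ± 0.268, limma adjusted p = 0.859). JAK2, the kinase bound to the receptor, gave 0.05 ± 0.259 on the log2 scale (adjusted p = 0.979, limma), with 173 in treatment replicate 3, against 338 and 367 in the other treatment arrays and 255 to 292 in control arrays.

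The transcription factors that JAK2 activates did not pass either. STAT5A had a log2 difference of -0.28 ± 0.22 (limma adjusted p = 0.794). STAT5B gave 201, 194 and 145 in treatment arrays, against 208.5, 225 and 242 in control arrays. Its groups did not overlap, and the log2 difference was -0.31 ± 0.204 (limma adjusted p = 0.751). Among the 31 axis genes the groups also did not overlap for GHRL, with treatment lower as for STAT5B, and for GHRH, with treatment higher. Over all rows 7.1% had treatment lower without overlap and 7.47% had it higher.

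Among the inhibitors, SOCS3, which blocks JAK kinases and is induced by several cytokines, had the lowest p of the 31. It gave 119, 61.7 and 132 in treatment arrays, against 46.0, 28.5 and 74.0 in control arrays, a log2 difference of 0.88 ± 0.293 that did not pass (limma adjusted p = 0.563). SOCS1 was at 0.57 ± 0.286 (adjusted p = 0.698) and CISH at 0.41 ± 0.211 (adjusted p = 0.702). Of the 7 inhibitors 4 had positive and 3 negative differences, the negative ones being the phosphatases PTPN1 (-0.15), PTPN2 (-0.15) and PTPN6 (-0.18). SOCS2, the family member most closely tied to growth hormone receptor feedback, was at 0.31 ± 0.249 (limma adjusted p = 0.794), with treatment replicate 3 (74.3) below all control arrays and the other treatment arrays (129 and 159) above them.

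IGF1, the insulin-like growth factor that growth hormone induces in liver, was dim, with 69.7, 38.8 and 65.1 in treatment arrays, against 52.3, 37.7 and 55.0 in control arrays. The groups overlapped (log2 difference 0.18 ± 0.229, limma adjusted p = 0.879). Over the 7 genes of the IGF group (IGF1, IGFALS and IGFBP1 to IGFBP5), 3 differences were positive and 4 negative, and IGFBP5, a binding protein of IGF1, had the lowest p among them (-0.37 ± 0.207, limma adjusted p = 0.717). The 8 listed genes that control growth hormone release were GHRH, somatostatin (SST), ghrelin (GHRL) and receptors of somatostatin and ghrelin. They lay between -0.33 and 0.31 and held 0 calls, beside 0.372% of all rows.

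**Figure D4:**
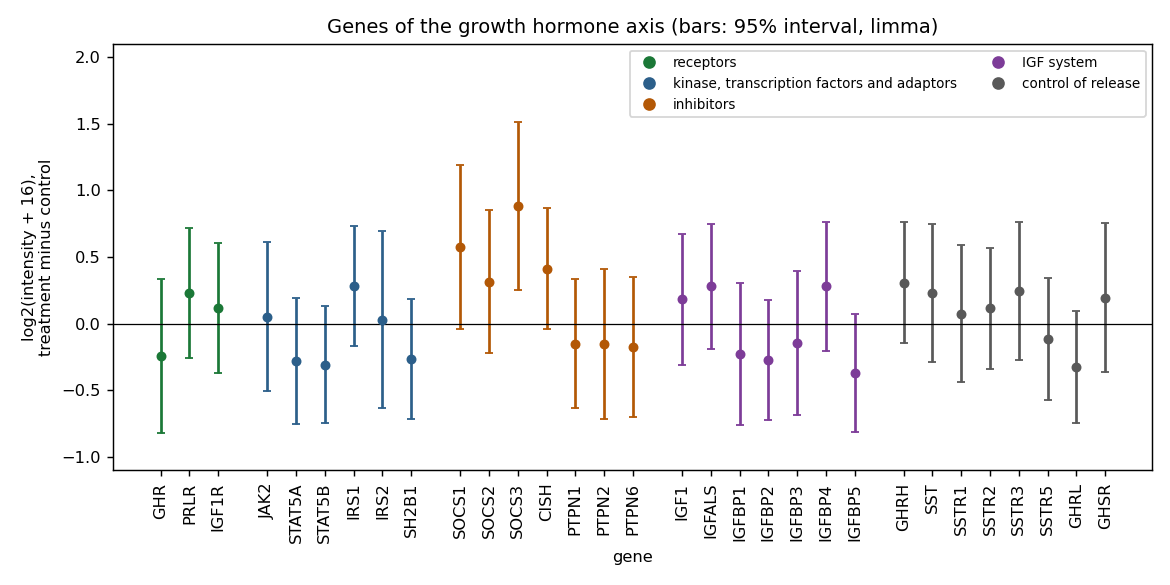
Log2 difference, treatment minus control (vertical axis, bars are 95% intervals from limma), for 31 genes of the growth hormone axis, coloured by role. The points lie between -0.37 and 0.88, and the interval of SOCS3 is the one that does not include 0.

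The cells that make these hormones in the body were looked for by their markers. Of 12 measured pituitary markers 0 passed limma and 1, LHX4, had an unadjusted p under 0.05 (-0.51 ± 0.233, adjusted p = 0.682), where 0.372% and 7.3% of all rows did. POU1F1, the activator of GH1 in somatotrophs, was dim on every array, with 13.9, 8.73 and 13.3 in treatment arrays, against 10.4, 6.37 and 17.2 in control arrays. The groups overlapped, and these values were close to the median of the olfactory receptor rows (15.9 in treatment and 14.0 in control arrays). The sister hormone gene PRL (prolactin) reached at most 17.4 and TSHB (the thyrotropin subunit) at most 14.4 on any array.

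The summed intensity of the 12 pituitary markers ran from 735 to 1128 in treatment arrays and from 908 to 1026 in control arrays, and the ranges overlapped. In 5 of the 12, GHRHR, POMC, LHX3, LHX4 and PITX1, at least 1 group mean was above the 95th percentile of the olfactory receptor rows. POMC, the corticotropin precursor, was at 0.22 ± 0.252 on the log2 scale (limma adjusted p = 0.868). GHRHR, the receptor for growth hormone releasing hormone, gave 125, 103 and 172 in treatment arrays, against 149.9, 107 and 123 in control arrays, with overlap.

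Placental markers likewise held 0 calls among 23 measured genes, and 2 had an unadjusted p under 0.05, beside 0.372% and 7.3% of all rows. Their median log2 difference was 0.14, beside 0.119 for the 360 olfactory receptor rows taken as a reference for dim rows. The differences were positive for 14 and negative for 9 of them, from -0.36 for TFAP2A, a trophoblast transcription factor, to 0.66. The 2 genes were ERVFRD-1, the gene of the fusion protein syncytin-2 (0.66 ± 0.232, limma adjusted p = 0.606), and the aromatase gene CYP19A1 (0.47 ± 0.21, adjusted p = 0.68). Both were dim, at no more than 28.4 on any array. HSD3B1, a steroid dehydrogenase of the syncytiotrophoblast, gave 139, 138 and 153 in treatment arrays, against 76.1, 121 and 117 in control arrays (log2 difference 0.42 ± 0.214, limma adjusted p = 0.698). Over the 23 genes the groups did not overlap for 3, HSD3B1, ERVFRD-1 and CYP19A1, each with treatment higher, beside 7.47% of all rows in that direction. PSG11, of the pregnancy-specific glycoproteins, was at 0.37 ± 0.205 (limma adjusted p = 0.713), and CGA, the shared subunit of the glycoprotein hormones, at 0.44 ± 0.252 (limma adjusted p = 0.72).

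The summed intensity of the 23 placental markers ran from 1399 to 1587 in treatment arrays and from 1413 to 1578 in control arrays. At least 1 group mean of 7 of them was above the 95th percentile of the olfactory receptor rows. Of 11 markers of HEK293 cells, such as VIM, KRT8, KRT18 and the neurofilament genes NEFL and NEFM, 10 were above that level and PAX8 was not. Of the 11, 0 passed limma (adjusted p under 0.05), beside 0.372% of all rows. PAX2, a kidney transcription factor, had the lowest p of them (0.76 ± 0.203, adjusted p = 0.328).

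The rows most like GH1 were sought by Pearson's r over the 6 arrays on the log2(intensity + 16) scale, among rows with a mean intensity of at least 50. These r values rest on 6 points in 2 groups and are a description. The closest row of any kind was 8180304 (r = 0.996), to which the annotation gives no gene. It gave 330.0, 486 and 476 in treatment replicates 1, 2 and 3, against 1068, 921 and 881 in control replicates 1, 2 and 3. As for GH1, the lowest value was that of treatment replicate 1 and the highest that of control replicate 1, and the group means were 431 ± 87.3 in treatment and 957 ± 98.3 in control arrays (SD, n = 3 each). Its log2 difference was -1.14 ± 0.215 (SE), the 11th lowest of all rows.

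The 5 genes with a row of their own whose pattern came closest were SSU72, a phosphatase of the RNA polymerase tail (r = 0.995), WDR91 (r = 0.994), the lipid kinase gene PI4KB (r = 0.994), NHP2, a protein of small nucleolar and telomerase particles (r = 0.993), and RGL2 (r = 0.991). Their log2 differences were smaller than that of GH1, from -0.60 for RGL2 to -0.40 for SSU72. In each of them every treatment array lay below every control array, as in 7.1% of all rows. The choice by r with GH1 favours rows that separate in this way, so nothing is read from it. SSU72 gave 307, 333 and 348 in treatment arrays, against 469, 431 and 417 in control arrays. An r of at least 0.9 with GH1 was reached by 388 rows, 1.96% of those compared, and an r of at least 0.99 by 10 rows.

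**Figure D5:**
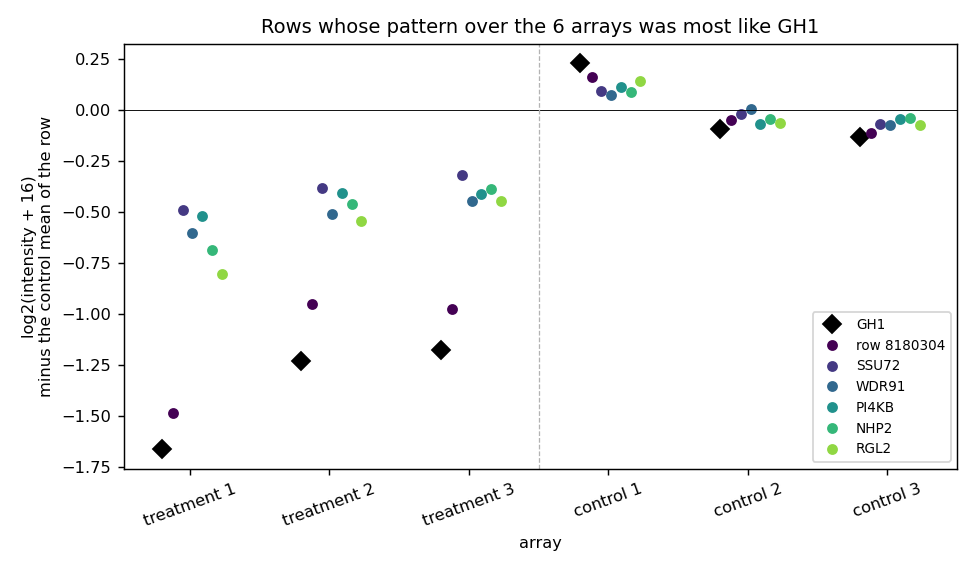
Log2(intensity + 16) minus the control mean of the row (vertical axis) on each of the 6 arrays, for GH1 (diamonds), row 8180304 and the 5 genes with the most similar pattern (circles). Row 8180304 lies near GH1 on every array, and the 5 genes, chosen for this pattern, lie lower in all treatment than in all control arrays, by smaller differences.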

How the data were processed

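The authors deposited linear intensities for 33297 rows and 6 Affymetrix Gene 1.0 ST arrays, with values from near 0 to 9794. Per the submitters' processing notes Partek was used. How background, scaling between arrays and probes were handled is not given in the sources used here, nor is a genome build, and coordinates are left out. Columns were matched to samples by accession. Rows were named through the platform annotation of 2016, which gave 1 symbol to 19460 rows, several to 1754 and none to 12083. A gene with several rows was represented by the row with the highest mean. Differences of log2(intensity + 16), which understate changes of dim rows, were tested with limma 3.58.1 (lmFit, eBayes) in R 4.3.3, as a two-sided test adjusted over all rows by Benjamini-Hochberg.

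The members, the lists, the offset and the rules for naming genes were chosen with earlier results of these data known. Named genes are all members, the called genes and the 4 lowest p values of each list, genes with a textbook tie to the members, and the rows most like GH1. The roles within the growth hormone axis were grouped after the values were seen. Tested on simulated data for this comparison with 33297 rows, the fit recovered 0% of changed rows at 1.5-fold, 22% at 2-fold, 92% at 4-fold and 96% at 8-fold (50 rows each), with 1 call among unchanged rows. Alternatives were the replicate block, other offsets, quantile normalization, median centring, a filter on dim rows, other variance priors and leaving out each array. Median intensity per array was 77.2 to 84.2, and the number of arrays limits the precision.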

Additional observations from a re-analysis of the deposited data

How the results depend on the processing

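The GH1 difference kept its sign and moved by less than the spread between replicates under all 15 alternatives, from -1.45 to -1.20. The replicate block, the variance priors and the filter on dim rows cannot change the difference of a row they keep, so stability under these is built in. The differences of CSHL1 and of the shared row stayed negative and that of GH2 positive under the 14 alternatives that kept these rows, while CSH2 was positive under 2 of 14, without control replicate 2 or 3. The neighbour, axis, pituitary and placental lists held 0 calls under all 15. Over all rows 124 were called. The count was 40 for log2 without an offset and 58 for an offset of 1, and ran from 69, without control replicate 1, to 129 when single arrays were left out, with 82 without treatment replicate 2, and the cause of these shifts was not tested. Rows called lower numbered 5, against 0 without control replicate 1, 1 without treatment replicate 2, 2 without control replicate 2 or 3 or with an offset of 1, 3 for log2 without an offset or for one of 50, and 15 with an intensity trend. The filter on dim rows kept GH1 alone of the 5 family rows, so their median became -1.36 there. When single arrays were left out the family median ran from -0.48 to -0.19.

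Same-numbered arrays did not deviate together (r of deviations from the group means -0.166, 0.0839 and -0.356 for replicates 1, 2 and 3), so the numbers were not taken as pairs. With the replicate block 105 rows were called, 5 of them lower, and the GH1 difference was -1.36, which a balanced block leaves unchanged.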
